A study of Homo sapiens with 12 samples.

Results

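The 10 dual-specificity MAPK phosphatase genes DUSP1, DUSP2, DUSP4, DUSP5, DUSP6, DUSP7, DUSP8, DUSP10, DUSP14 and DUSP16 were followed in RNA from Jurkat, an established line grown from a human T-cell leukaemia. They were chosen by name, as feedback inhibitors of MAPK signalling, and are 10 of the 19775 genes that had a probe set with a single gene symbol. Together they had 22 such probe sets, of which 19 lay at or above the filter of 4.02 on the log2 scale. Each gene was represented by its brightest probe set, and by that measure all 10 were among the 12824 genes tested. The cells had been transduced with a construct encoding miR-21 or with a cognate control vector. The RNA read on the arrays was of 3 kinds: RNA immunopurified (IP) with an antibody to AGO2, RNA purified with control IgG, and Total RNA of the whole lysate. The 6 groups were AGO2 IP of miR-21 cells, AGO2 IP of control vector cells, IgG IP of miR-21 cells, IgG IP of control vector cells, Total RNA of miR-21 cells and Total RNA of control vector cells. Each group had 2 replicates, which gave 12 arrays. All cells were grown in RPMI with 10% fetal bovine serum and given no stimulus that the labels record. Whether the replicates were separate transductions or cultures is not stated, so p-values measure only the spread between these arrays.

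MAPKs (ERK, JNK and p38) are switched on when a threonine and a tyrosine in their activation loop are both phosphorylated, and a dual-specificity phosphatase removes both phosphates. Many of these phosphatase genes are themselves induced by the MAPK pathway, which closes a negative feedback loop, and in T cells they limit signalling from the T cell receptor. DUSP1, DUSP2, DUSP4 and DUSP5 are inducible nuclear enzymes, DUSP6 and DUSP7 are cytoplasmic and selective for ERK, and DUSP8, DUSP10 and DUSP16 act mainly on JNK and p38. DUSP14 is a small, atypical member without the domain that docks on MAPKs. AGO2 is the Argonaute protein that holds miRNAs and the mRNAs they bind. DUSP8 and DUSP10 are among the genes reported elsewhere as miR-21 targets.

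The construct encodes miR-21, so its mature sequence is shown with another mature miRNA in the RefSeq table (build GRCh38.p14) that carries the same seed. Matches on part of the genome were left out of what is shown, so further miRNAs may carry the seed. Capitals mark the seed, bases 2 to 8, with which a miRNA pairs to its targets.
hsa-miR-21-5p: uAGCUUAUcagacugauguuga
hsa-miR-590-5p: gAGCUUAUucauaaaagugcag
The first lies at chr17:59841273-59841294 on the plus strand and the second at chr7:74191213-74191234 on the plus strand. Beyond the seed most of their letters differ. In the same build RefSeq places DUSP2 at chr2:96143169-96145440, DUSP5 at chr10:110497907-110511533, DUSP6 at chr12:89347235-89352501, DUSP7 at chr3:52048919-52056571 and DUSP10 at chr1:221701424-221742089. The level of MIR21 itself is not analysed here, so the miR-21 construct was not checked on the arrays.

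T cell markers fitted the labelled line: 11 of 11 T cell markers measured lay above the filter, with means up to 12.2 for CD3D, a subunit of the T cell receptor complex. Above it were also 2 of 5 B cell markers (CD79A, 6.56, and BLK, 4.23) and 1 of 3 monocyte markers (CSF1R, 4.53). So were 1 of 2 erythroid markers (HBB, 5.44) and 2 of 5 epithelial markers (KRT18, 5.95, and KRT8, 4.76). Among the markers below it were CD14 (2.95, monocytes), MS4A1 (3.07, B cells) and EPCAM (2.67, epithelia). The lowest T cell marker, CD28, averaged 4.77, so the levels of the lists overlapped. Array means were 4.39 to 4.41 in replicate 1 and 5.26 to 5.27 in replicate 2, so levels are compared within a replicate number. One microgram (1 ug) of Total RNA but 100 ng of IP RNA was labelled, and how far that amount acts on the values was not tested. The 3' minus 5' signal of ACTB, a sign of RNA length, was 1.97 to 4.0 in IPs and 1.35 to 1.38 in Total RNA of replicate 1, and 2.08 to 3.48 in IPs and 3.18 to 3.53 in Total RNA of replicate 2. Its part in the differences was not tested.

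The IP arrays of replicate 2 did not divide by antibody as those of replicate 1 did. In replicate 1 the AGO2 IP arrays differed from the IgG IP arrays. In replicate 2 the 2 IP arrays of miR-21 cells were near copies of each other (SD of the log2 difference over the 12824 genes 0.292), as were those of control vector cells (0.184). The difference between the miR-21 and control vector IgG IP arrays of replicate 2 went with AGO2 IP minus IgG IP of replicate 1 (r = 0.630 across genes, which share the arrays and are no replicates). AGO2 IP minus IgG IP of replicate 2 did not (r = 0.01 in miR-21 cells and r = -0.01 in control vector cells). The array labelled miR-21 IgG IP and the array labelled control vector AGO2 IP of replicate 2 thus go against the pattern of replicate 1 that their labels would give. They are called the 2 arrays that go against their labels, and differences that rest on the IPs are given with and without them. Because the 2 arrays were picked from these same values, the fit without them is a description: a smaller spread follows from the choice, its calls are counts past the same threshold, and none of them supports an enrichment. Why they do so was not tested, and the labels were kept as given. DUSP2 shows the pattern plainly.

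**Figure D1:**
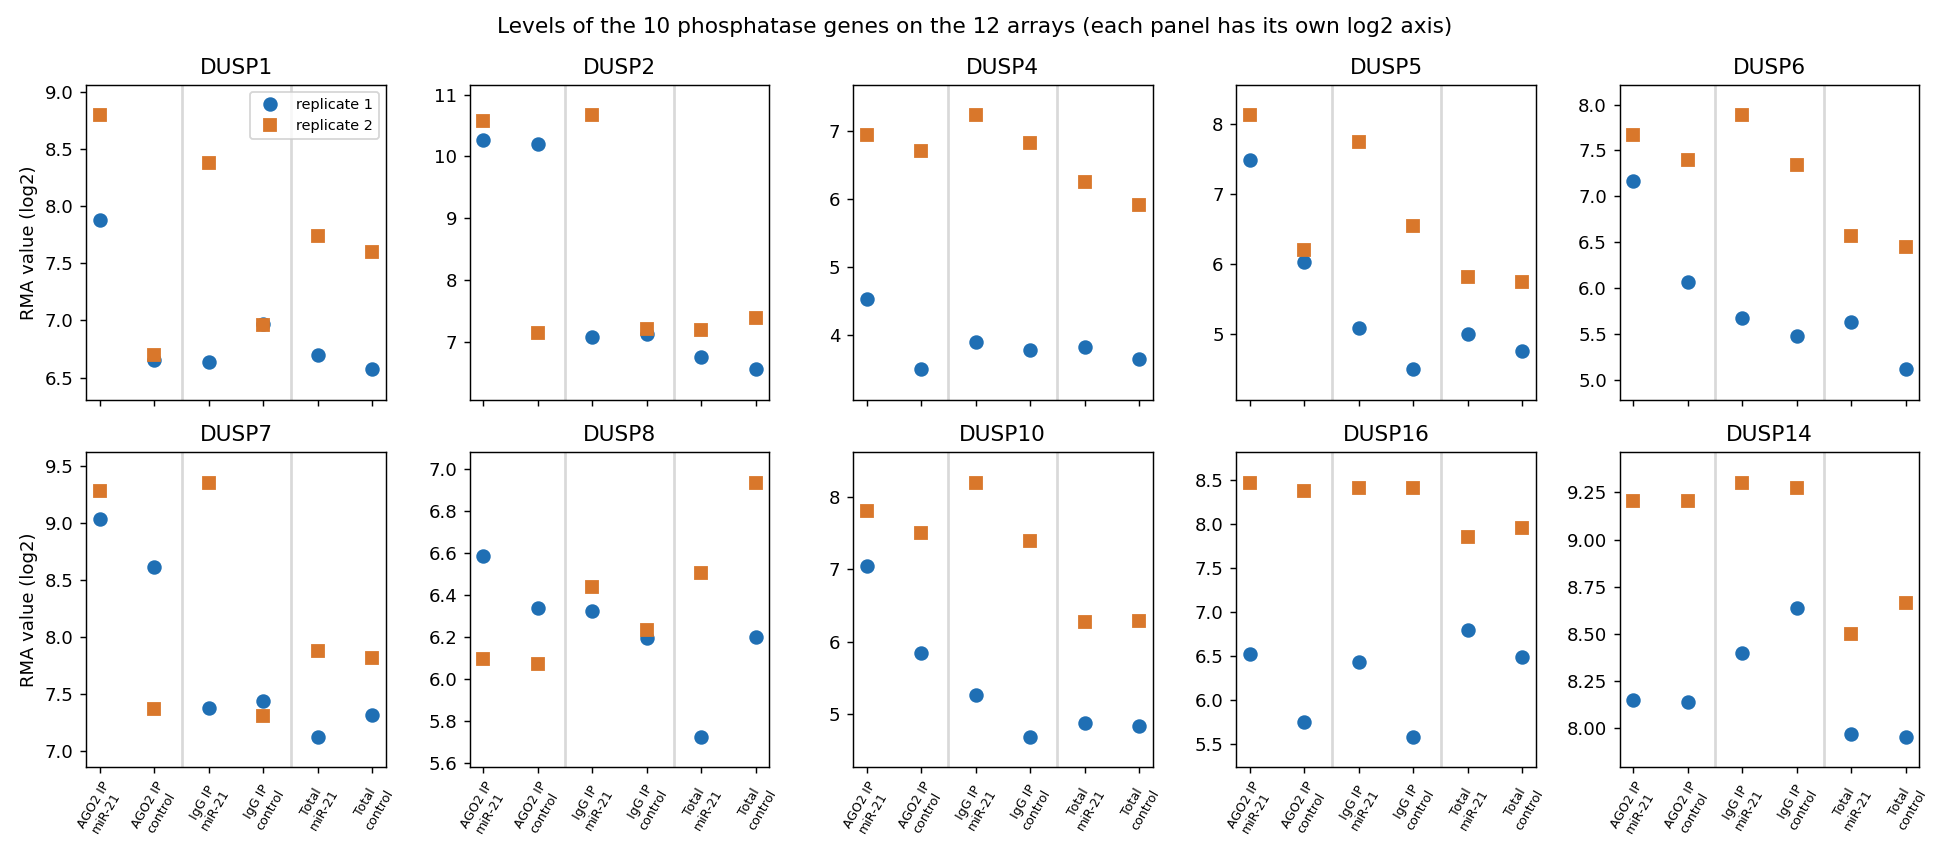
RMA value (log2, vertical axis) of each of the 10 genes on the 12 arrays, by fraction and construct (horizontal axis), with circles for replicate 1 and squares for replicate 2; each point is 1 array. DUSP2 is above 10 on both AGO2 IP arrays of replicate 1 and on both miR-21 IP arrays of replicate 2, and between 6.55 and 7.39 on the other 8 arrays.

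AGO2 IP RNA was first compared with Total RNA, 4 arrays against 4 over both constructs, to see which of the phosphatase mRNAs were higher in the AGO2 fraction. The ERK phosphatases DUSP5 and DUSP6 and the JNK and p38 phosphatase DUSP10 rose by 3.10-fold, 2.20-fold and 2.78-fold when the replicate number entered the model as a block, and none fell. That is 3 of 10, where 4.71% of all genes tested rose and 16% were called in either direction. Without the block limma called 0 of the 10 genes and 0% of all genes, although 1230 genes had an unadjusted p under 0.05. The differences of the 10 genes were above 0 in 9 and had a median of 0.77 on the log2 scale, against -0.05 over all genes. Both AGO2 IP arrays lay above both Total RNA arrays within each replicate number for 4 genes, DUSP5, DUSP6, DUSP10 and DUSP14, as they did for 11.4% of all genes. With the 2 arrays that go against their labels left out, 5 of the 10 lay past the same threshold on the higher side (DUSP2, DUSP5, DUSP6, DUSP7 and DUSP10), as did 8.58% of all genes, and 21.9% lay past it in either direction.

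Among the nuclear enzymes, DUSP5, which acts on ERK, was measured by a single probe set. Its log2 level was 7.48 and 6.03 in the AGO2 IPs of miR-21 and control vector cells in replicate 1, against 4.99 and 4.76 in their Total RNA. In replicate 2 it was 8.12 and 6.20 in the AGO2 IPs, against 5.81 and 5.74 in Total RNA. The IgG IPs of miR-21 and control vector cells were at 5.09 and 4.49 in replicate 1. In replicate 2 they were at 7.73 and 6.55, so there all IP arrays lay above Total RNA. AGO2 IP and Total RNA did not overlap within a replicate number, and the miR-21 AGO2 IP array was the highest of its replicate both times. The log2 difference was 1.63 ± 0.38 (SE; limma with the block, adjusted p = 0.0257). It was 1.88 within replicate 1 and 1.38 within replicate 2, by limma on the 6 arrays of each. Such a fit has 1 array of each construct and fraction, so the 2 constructs stand in for replicates. Its p-values measure how far fraction differences varied between constructs, not between replicates.

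DUSP2, a nuclear phosphatase induced in activated T cells, had the widest span of group means of the 10, and 0.359% of all genes tested had a span as wide. It was read by a single probe set. In replicate 1 its log2 level was 10.26 and 10.19 in the AGO2 IPs of miR-21 and control vector cells, against 7.08 and 7.12 in the IgG IPs and 6.75 and 6.55 in Total RNA. In replicate 2 it was 10.58 and 7.14 in the AGO2 IPs, against 10.66 and 7.20 in the IgG IPs and 7.19 and 7.39 in Total RNA. High values therefore followed the antibody in replicate 1 and the construct in replicate 2, while Total RNA differed little by construct in either. Over all 12 arrays AGO2 IP minus Total RNA was 2.57 ± 0.80 (limma with the block, adjusted p = 0.0583). Without the 2 arrays that go against their labels it was 3.44, a value given with no test since DUSP2 itself sets those arrays apart. DUSP2 lay past the threshold when only the control vector AGO2 IP array of replicate 2 was left out. It also did so without only 1 miR-21 IgG IP array of either replicate. The 2 arrays that go against their labels are among these, so these fits are descriptions and support no enrichment.

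By its brightest probe set DUSP1, an immediate-early gene that acts on all MAPK classes, was highest on the miR-21 AGO2 IP array of each replicate number. Its brightest probe set was at 7.88 and 6.66 in the AGO2 IPs of miR-21 and control vector cells in replicate 1, against 6.70 and 6.57 in Total RNA. The second replicate gave 8.79 and 6.70 in the AGO2 IPs, against 7.74 and 7.59 in Total RNA. The IgG IPs of miR-21 and control vector cells were at 6.64 and 6.96 in replicate 1 and at 8.38 and 6.96 in replicate 2. The control vector AGO2 IP array of replicate 2 was below both Total RNA arrays, so the groups overlapped, and the difference was 0.36 ± 0.30 (limma with the block, adjusted p = 0.454). A second DUSP1 probe set gave 0.23, and the third lay below the filter.

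DUSP4, the remaining nuclear member, was near the low end of the signal range in replicate 1. There its log2 level was 4.53 and 3.49 in the AGO2 IPs of miR-21 and control vector cells, against 3.83 and 3.65 in Total RNA. In replicate 2 it was 6.95 and 6.71 in the AGO2 IPs, against 6.25 and 5.91 in Total RNA. The groups overlapped in replicate 1 but not in replicate 2. Over both, the difference was 0.51 ± 0.24 (limma with the block, adjusted p = 0.176), and the other 2 probe sets gave 0.79 and 0.52. Within replicate 2 alone, with the constructs in place of replicates, it was 0.75 by limma.

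Of the cytoplasmic ERK phosphatases, DUSP6, a feedback inhibitor of ERK signalling, was higher in AGO2 IP by each of its 3 probe sets. The brightest was at 7.16 and 6.07 in the AGO2 IPs of miR-21 and control vector cells in replicate 1, against 5.63 and 5.11 in Total RNA. Replicate 2 gave 7.67 and 7.40 in the AGO2 IPs, against 6.57 and 6.45 in Total RNA. The IgG IPs of miR-21 and control vector cells were at 5.68 and 5.48 in replicate 1. In replicate 2 they were at 7.88 and 7.34, so there all IP arrays lay above Total RNA. AGO2 IP and Total RNA did not overlap within a replicate number. The difference was 1.14 ± 0.28 (limma with the block, adjusted p = 0.0293), and the other 2 probe sets, tested as rows of their own among 23123 probe sets, gave 1.41 and 1.25 (adjusted p = 0.0305 and 0.0242). In that test 13.8% of all probe sets were called.

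DUSP7, the close relative of DUSP6, followed DUSP2 rather than DUSP6. Its brightest probe set was at 9.04 and 8.61 in the AGO2 IPs of miR-21 and control vector cells in replicate 1, against 7.12 and 7.31 in Total RNA. Replicate 2 gave 9.27 and 7.36 in the AGO2 IPs, against 7.87 and 7.81 in Total RNA. The control vector AGO2 IP array of replicate 2 was again below Total RNA. The difference was 1.04 ± 0.43 over all arrays (limma with the block, adjusted p = 0.127) and, as a description, 1.44 without the 2 arrays that go against their labels. Its dimmer probe set gave -0.23, so the 2 probe sets of DUSP7 disagree.

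In the JNK and p38 class, DUSP10 was the member that rose in AGO2 IP against Total RNA. Its brightest probe set was at 7.05 and 5.84 in the AGO2 IPs of miR-21 and control vector cells in replicate 1, against 4.87 and 4.84 in Total RNA. The second replicate gave 7.81 and 7.50 in the AGO2 IPs, against 6.28 and 6.29 in Total RNA. Again the groups did not overlap within a replicate number. The difference was 1.48 ± 0.35 (limma with the block, adjusted p = 0.0262). The second DUSP10 probe set gave 0.89 and did not pass (adjusted p = 0.0873).

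DUSP16 and DUSP8, which belong to the same class, did not pass the test. DUSP16, a phosphatase with a preference for JNK, was at 6.52 and 5.75 in the AGO2 IPs of miR-21 and control vector cells in replicate 1, against 6.80 and 6.49 in Total RNA, and at 8.47 and 8.37 in the AGO2 IPs, against 7.85 and 7.96 in Total RNA, in replicate 2. The order of the groups thus turned between the replicates, and the difference was 0.00 ± 0.30 (limma with the block, adjusted p = 0.994). The other DUSP16 probe sets above the filter gave 0.33 and 0.28. For DUSP8 the probe set used is of the kind (x_at) that may bind related transcripts. It was at 6.59 and 6.34 in the AGO2 IPs of miR-21 and control vector cells in replicate 1, against 5.73 and 6.20 in Total RNA, and at 6.10 and 6.07 in the AGO2 IPs, against 6.51 and 6.94 in Total RNA, in replicate 2. The AGO2 IPs lay above Total RNA in replicate 1 and below it in replicate 2, for a difference of -0.07 ± 0.25 (adjusted p = 0.88).

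DUSP14, the atypical member, which restrains T cell receptor signalling through the adaptor TAB1, was slightly higher in AGO2 IP than in Total RNA. It was at 8.15 and 8.14 in the AGO2 IPs of miR-21 and control vector cells in replicate 1, against 7.97 and 7.96 in Total RNA. In replicate 2 it was at 9.20 and 9.21 in the AGO2 IPs, against 8.50 and 8.66 in Total RNA. The groups did not overlap within a replicate number, yet the difference of 0.40 ± 0.18 did not pass the test (limma with the block, adjusted p = 0.164). It was 0.18 within replicate 1 and 0.63 within replicate 2.

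**Figure D2:**
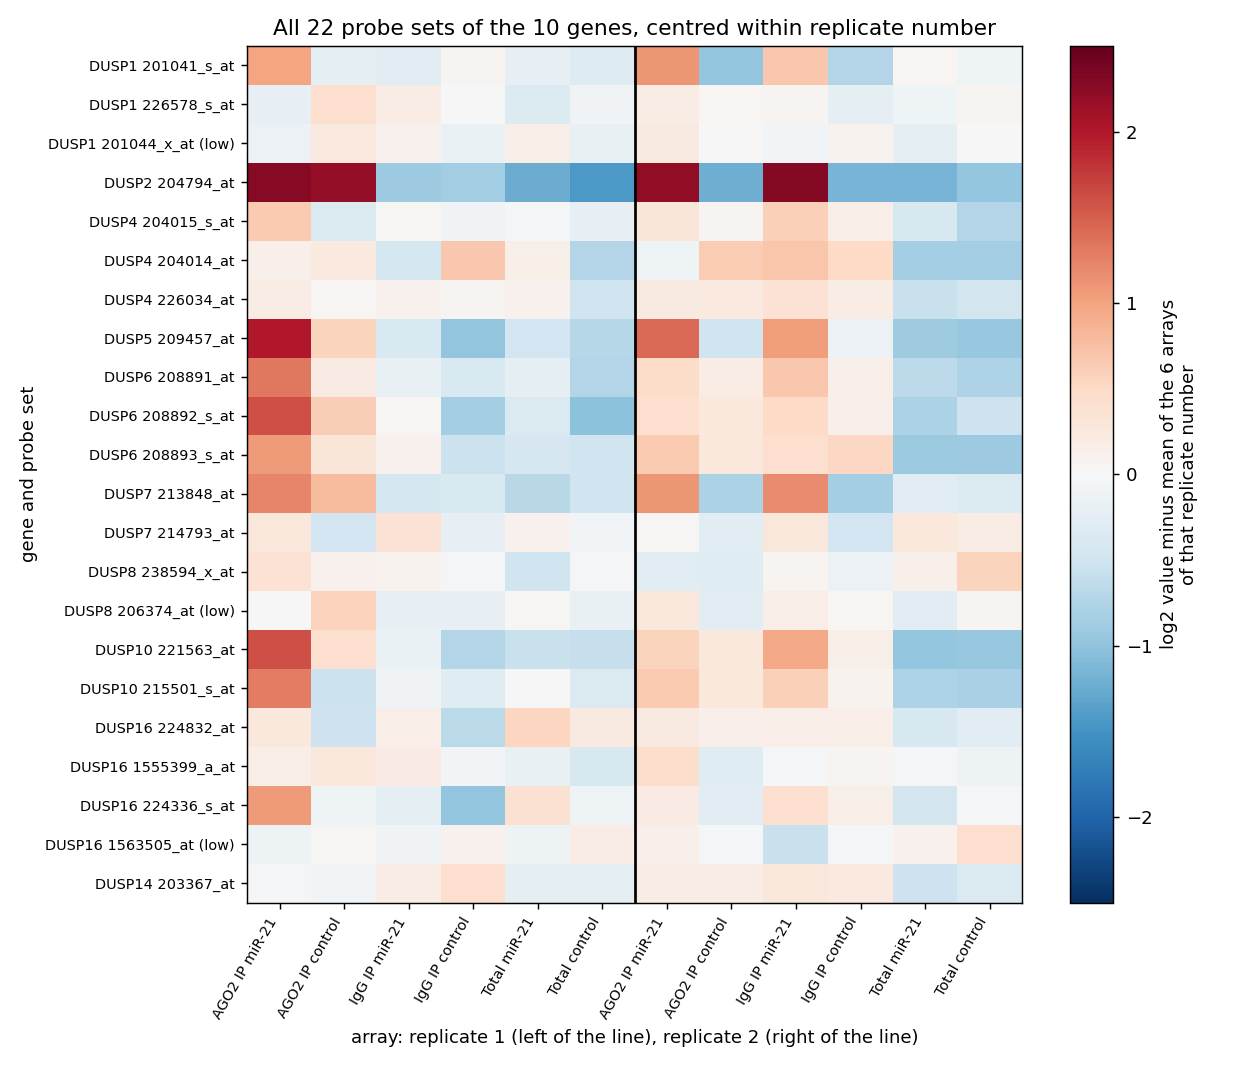
Each cell is 1 probe set (rows) on 1 array (columns), as log2 value minus the mean of the 6 arrays of that replicate number; red is above and blue below that mean, and "low" marks the 3 probe sets under the filter. DUSP2 and the upper DUSP7 row are red in both AGO2 IPs of replicate 1 and in both miR-21 IPs of replicate 2, while DUSP6 and DUSP10 are red in all 4 IPs of replicate 2 relative to Total RNA.

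The calls of DUSP5, DUSP6 and DUSP10 rest on few arrays. With the block, DUSP5 and DUSP10 were called in 7 of the 12 fits that leave out 1 array and DUSP6 in 6. All 3 calls were lost without either AGO2 IP array of replicate 1, without the miR-21 AGO2 IP array of replicate 2 or without either Total RNA array of replicate 2, and the call of DUSP6 also without the control vector Total RNA array of replicate 1. Over those fits the log2 difference ran from 1.32 to 1.95 for DUSP5, from 0.88 to 1.39 for DUSP6 and from 1.16 to 1.79 for DUSP10.

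AGO2 IP was next compared with IgG IP, which tests for enrichment over the antibody background. Over all 12 arrays 0 of the 10 genes were called with or without the block, as for 0% of all genes (663 genes had an unadjusted p under 0.05 with the block and 29 without). The 4 largest differences were those of DUSP2 (1.53 ± 0.80), DUSP5 (0.99 ± 0.38), DUSP7 (0.70 ± 0.43) and DUSP10 (0.66 ± 0.35), each with adjusted p = 0.819 by limma with the block. The median of the 10 was 0.38, against -0.08 over all genes. Both AGO2 IP arrays lay above both IgG IP arrays in each replicate number for 0 of the 10, as for 1.23% of all genes. The values of the 2 replicates stood apart here, a difference that was not tested. The fits within a replicate number have the constructs in place of replicates. Within replicate 1, 5 of the 10 genes rose, DUSP2 by 3.13, DUSP5 by 1.97, DUSP10 by 1.47, DUSP7 by 1.42 and DUSP6 by 1.04 (limma on 6 arrays, adjusted p from 0.000317 for DUSP2 to 0.029 for DUSP6), where 12.5% of all genes rose and 24% were called. Within replicate 2 the 10 differences lay between -0.25 and 0.08, and 0 genes of the 10 and 0% of all genes were called.

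**Figure D3:**
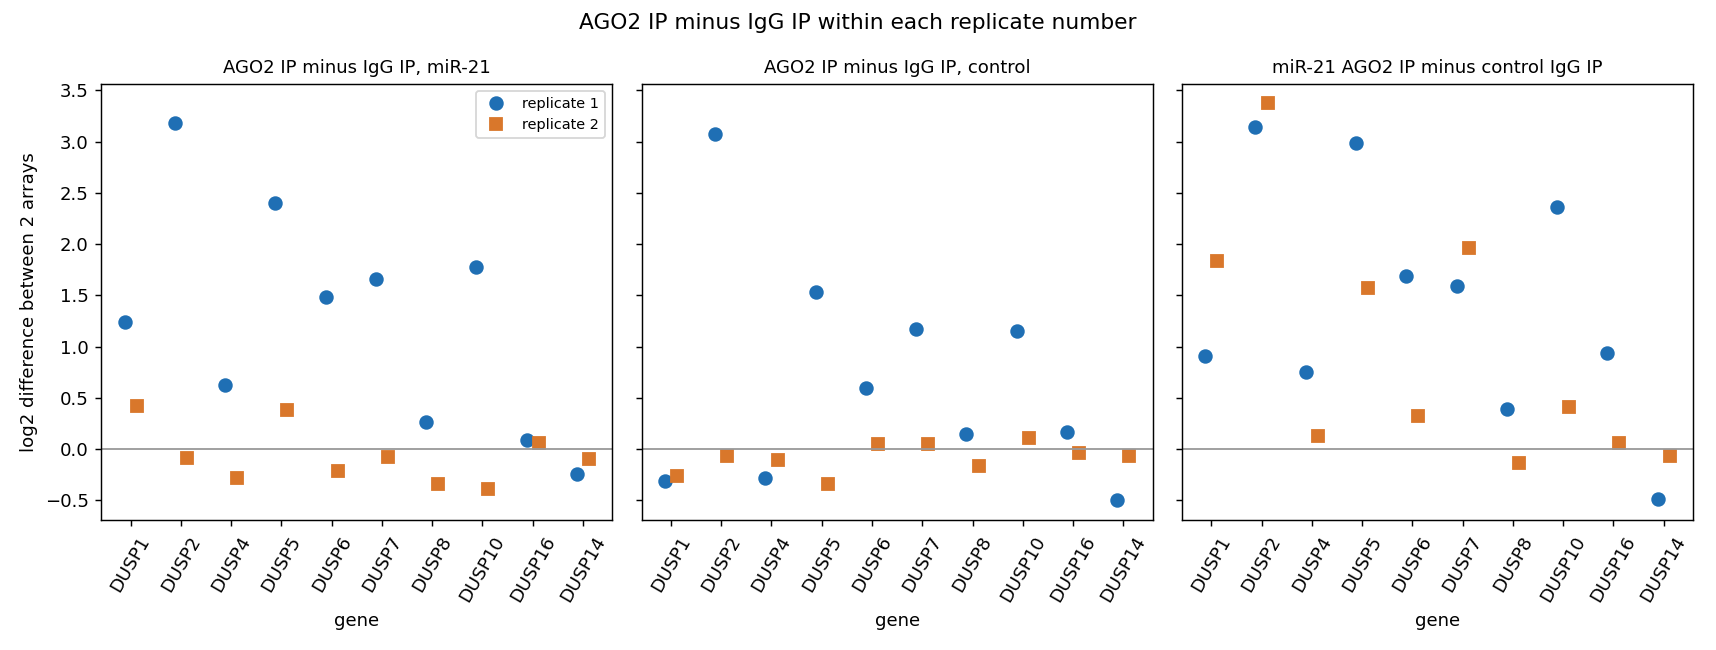
Log2 difference between 2 arrays of the same replicate number (vertical axis) for each gene (horizontal axis): AGO2 IP minus IgG IP in miR-21 cells, the same in control vector cells, and the miR-21 AGO2 IP array minus the control vector IgG IP array; circles are replicate 1 and squares replicate 2. In the first 2 panels DUSP2 is above 3 in replicate 1 and near 0 in replicate 2, and in the third panel it is 3.14 in replicate 1 and 3.37 in replicate 2.

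With the 2 arrays that go against their labels left out, AGO2 IP and IgG IP of replicate 2 are each represented by 1 array, of miR-21 and of control vector cells in turn. The differences are then 3.19 for DUSP2, 1.61 for DUSP5, 1.51 for DUSP7, 0.98 for DUSP10, 0.70 for DUSP6 and 0.70 for DUSP1. The first 3 lay past the same threshold, that is 3 of 10, as did 5.95% of all genes on the higher side and 7.42% in either direction, and these counts follow the choice of arrays. DUSP4, DUSP8, DUSP16 and DUSP14 lay between -0.27 and 0.07. In replicate 2 this fit sets a miR-21 array against a control vector array, so there antibody and construct cannot be told apart.

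**Figure D4:**
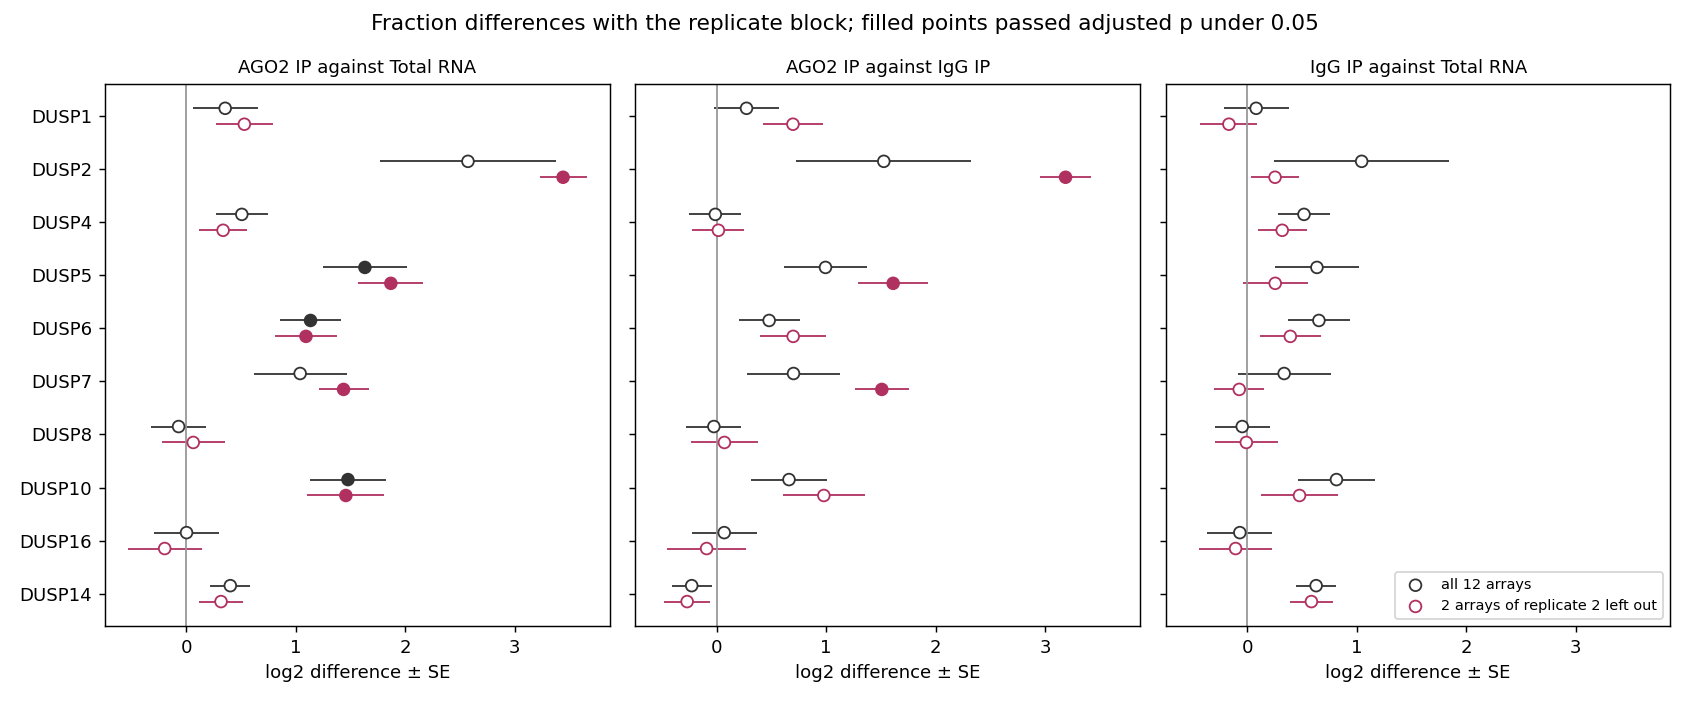
Log2 difference with its SE (horizontal axis) for each gene (rows) in the 3 comparisons of fractions, from limma with the replicate block; black points use all 12 arrays, red points leave out the 2 arrays of replicate 2 that go against their labels, and filled points lie past an adjusted p of 0.05, which for red points is a description. Between the IPs, DUSP2 is at 3.19 without the 2 arrays and at 1.53 with all; between IgG IP and Total RNA it is at 0.26 and 1.05.

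IgG IP against Total RNA gives the antibody background of the same genes. With the block 0 of the 10 were called, where 1.92% of all genes were called and 0.296% rose. Without the block 0% were called (2524 genes had an unadjusted p under 0.05 with the block and 437 without). DUSP14 was at 8.40 and 8.64 in the IgG IPs of miR-21 and control vector cells in replicate 1, against 7.97 and 7.96 in Total RNA, and at 9.30 and 9.27 in the IgG IPs, against 8.50 and 8.66 in Total RNA, in replicate 2. It was the only member with both IgG IP arrays above both Total RNA arrays in each replicate number, as 10% of all genes were, and its difference of 0.63 ± 0.18 did not pass (limma with the block, adjusted p = 0.108). DUSP10 (0.82 ± 0.35) and DUSP6 (0.66 ± 0.28) did not pass either, with adjusted p of 0.24 and 0.239.

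Here too the replicates stood apart, again untested, and fits within a replicate number have the constructs in place of replicates. Within replicate 2, 5 genes rose in IgG IP, DUSP10 by 1.51, DUSP5 by 1.36, DUSP6 by 1.11, DUSP4 by 0.95 and DUSP14 by 0.71 (limma on 6 arrays, adjusted p from 0.00643 for DUSP10 to 0.0422 for DUSP5), where 14.7% of all genes rose and 31.3% were called. Within replicate 1 none of the 10 was called, where 3.77% of all genes were and 0.772% rose. The same 5 genes rose in AGO2 IP against Total RNA within replicate 2, where 15.8% of all genes rose and 35.2% were called. These comparisons share the Total RNA arrays, and in replicate 2 the IPs of a construct were near copies. Within replicate 1 the genes that rose in AGO2 IP against Total RNA were DUSP2, DUSP5, DUSP6, DUSP7 and DUSP10, where 13% of all genes rose and 36.3% were called. Without the 2 arrays that go against their labels, IgG IP minus Total RNA was 0.26 for DUSP2, -0.07 for DUSP7 and 0.26 for DUSP5, and 0 of the 10 genes were called, where 0.398% of all genes were and 0.0468% rose.

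The miR-21 construct was compared with the control vector within each fraction, the comparison in which targets of the miRNA could show lower Total RNA or higher AGO2 IP signal. No gene was called in any fraction, with or without the block (0% of all genes; with the block 3 genes in Total RNA, 353 in AGO2 IP and 123 in IgG IP had an unadjusted p under 0.05, and without it 0, 11 and 4). In Total RNA the 10 genes had differences from -0.45 to 0.32 with a median of 0.06, against 0.02 over all genes. DUSP10 was at 4.87 and 6.28 in Total RNA of miR-21 cells, against 4.84 and 6.29 in control vector cells, in replicates 1 and 2. Its difference was 0.01 with a 95% interval from -1.10 to 1.13 (limma with the block), so changes within that interval could not be told from none. DUSP8 was at 5.73 and 6.51 in Total RNA of miR-21 cells, against 6.20 and 6.94 in control vector cells. It was lower in both replicates, and its difference of -0.45, with a 95% interval from -1.25 to 0.35, did not pass (adjusted p = 1). The other DUSP8 probe set, which lay below the filter, gave 0.20 in replicate 1 and -0.35 in replicate 2.

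In AGO2 IP the difference between constructs was above 0 for all 10 genes by their brightest probe sets, but only 0.0061 for DUSP14. The median was 0.72, against 0.07 over all genes, and the share of all genes above 0 is not reported here. Of the 19 probe sets of the 10 genes above the filter, 17 were above 0. A dimmer DUSP4 probe set gave -0.12 and -0.75. In IgG IP the difference between constructs was above 0 for 9 of 10 genes, with a median of 0.48, against 0.04 over all genes. By its brightest probe set DUSP1 was higher in the AGO2 IP of miR-21 cells in both replicates, by 1.22 and 2.09. Over both the difference was 1.66 ± 0.42 (limma with the block, unadjusted p = 0.00323, adjusted p = 1), and it was 1.31 without the 2 arrays that go against their labels. The second DUSP1 probe set above the filter gave -0.62 and 0.14 for the same difference, so the probe sets disagree. DUSP5 was higher by 1.46 and 1.92 in the AGO2 IP of miR-21 cells (1.69 ± 0.54, limma with the block, adjusted p = 1). Without the 2 arrays that go against their labels it was higher by 1.21. In IgG IP the construct difference was 0.59 and 1.19 for DUSP5, and -0.33 and 1.42 for DUSP1. Each of these replicate 2 values uses 1 of the 2 arrays that go against their labels. For DUSP2 the construct difference in AGO2 IP was 0.07 in replicate 1 and 3.44 in replicate 2, and in IgG IP it was -0.05 and 3.46. DUSP7 likewise gave 0.43 and 1.91 in AGO2 IP and -0.07 and 2.04 in IgG IP. The construct differences of DUSP2 and DUSP7 in the IPs thus were seen in replicate 2, in which 2 arrays go against their labels. Without those 2 arrays the median of the 10 was 0.78 in AGO2 IP and 0.09 in IgG IP. The medians over all genes in that fit are not reported here. The control vector AGO2 IP group and the miR-21 IgG IP group then hold 1 array each, both of replicate 1. That control vector AGO2 IP array had the highest 3' minus 5' signal of ACTB of all arrays, 4.0. The miR-21 AGO2 IP array of replicate 1 had 1.97. The part of this in the median was not tested.

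**Figure D5:**
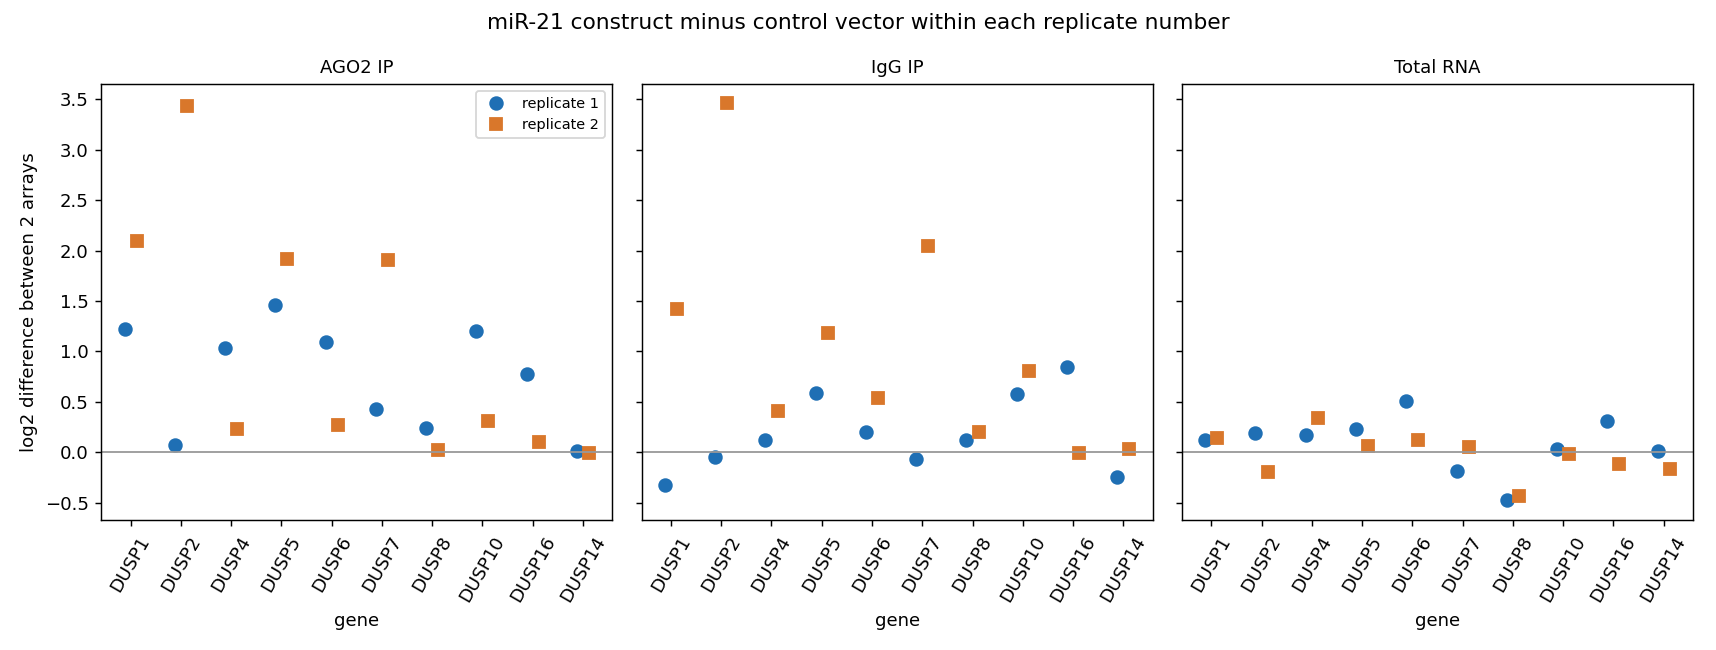
Log2 difference between the miR-21 and the control vector array of the same replicate number (vertical axis) for each gene (horizontal axis) in AGO2 IP, IgG IP and Total RNA; circles are replicate 1 and squares replicate 2. In Total RNA the points lie between -0.48 and 0.51, and in the IPs DUSP2 reaches 3.44 and 3.46 in replicate 2 only.

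The interaction asks whether AGO2 IP minus IgG IP differed between miR-21 and control vector cells. No gene was called (0% of all genes; 39 genes had an unadjusted p under 0.05 with the block and 0 without). DUSP1 had the largest value of the 10, 1.11 ± 0.59 (limma with the block, adjusted p = 1). The second DUSP1 probe set above the filter gave -0.48 ± 0.39. DUSP10 gave 0.06 ± 0.70, DUSP8 -0.03 ± 0.50 and DUSP4 0.36 ± 0.48. This contrast rests directly on the 2 arrays that go against their labels. Without them it was 1.26 for DUSP1, 0.78 for DUSP10, -0.37 for DUSP8 and 1.10 for DUSP4. The median of the 10 was then 0.63, and that over all genes is not reported here.

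The other MAPK genes were read from lists, in AGO2 IP against Total RNA with the block, where 4.71% of all genes rose and 11.3% fell. Of 17 ERK cascade genes tested 0 rose and 2 fell, with a median of -0.27 against -0.05 over all genes. MAP2K2, which encodes a kinase that activates ERK, fell by 1.47 and the scaffold gene KSR1 by 0.68. Of 21 JNK and p38 cascade genes 2 rose and 3 fell, with a median of 0.03. MAPKAPK5 rose by 1.09, while MAPKAPK3 fell by 0.98, MAPKAPK2 by 0.78 and MAP3K4 by 0.74. The first 3 encode kinases downstream of p38, and MAP3K4 encodes a kinase upstream of it. TAB2, an adaptor of the TAK1 kinase, rose by 0.94. Without the 2 arrays that go against their labels, MAPKAPK3 (-0.88, adjusted p = 0.0649) and MAPKAPK2 (-0.69, adjusted p = 0.0721) no longer passed, while MAP3K3 (1.49) and MAP3K2 (-0.95) lay past the threshold.

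Of 16 ERK-induced immediate-early and response genes 3 rose and 0 fell, although the list's median was -0.06. IER3, an early response gene, rose by 2.54, ZFP36, an mRNA decay factor, by 1.81 and the survival gene MCL1 by 1.67. Of 14 other dual-specificity phosphatase genes 2 rose and 1 fell, with a median of -0.13. DUSP15 rose by 1.30 and DUSP12 by 1.22, and SSH2, a cofilin phosphatase, fell by 0.73. Of 8 other phosphatase genes that act on MAPKs 1 rose and 1 fell, with a median of -0.12. PPP2CB, a catalytic subunit of PP2A, rose by 0.95, and PTPN7, a tyrosine phosphatase of blood cells that acts on ERK, fell by 0.97. Without the 2 arrays that go against their labels, PTPN7 no longer passed (-0.82, adjusted p = 0.0996), and PPP2CA, another catalytic subunit of PP2A (-0.68), NR4A1 (1.29), which encodes a nuclear receptor, and ATF3 (-0.84), which encodes a stress-induced transcription factor, lay past the threshold. The other list genes named for AGO2 IP against Total RNA over all arrays stayed past it.

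In AGO2 IP against IgG IP no gene of these 5 lists was called over all arrays. Without the 2 arrays that go against their labels, those past the threshold were ZFP36 (1.60), IER3 (2.01), MCL1 (1.46) and ATF3 (-1.09) among the response genes, DUSP12 (1.33) and DUSP15 (1.10) among the other dual-specificity phosphatases, MAP3K3 (1.47) in the JNK and p38 list and MKNK2 (1.22) in the ERK list.

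The genes whose 12 values were most like those of DUSP2, by Pearson correlation after each replicate number was centred on its own mean, were PIP4P1 (r = 0.995), MANBAL (r = 0.995) and NKX2-3 (r = 0.994), among 12823 genes compared. For DUSP5 they were COX10 (r = 0.986), PIGB (r = 0.985) and GFI1 (r = 0.983). The 12 points share the arrays and their preparation, so these correlations are descriptions. MANBAL, like DUSP2, was above 10 on both AGO2 IP arrays of replicate 1 (10.29 in miR-21 and 10.34 in control vector cells) and on both miR-21 IP arrays of replicate 2 (10.44 in AGO2 IP and 10.43 in IgG IP), and at most 7.66 elsewhere. Among the 10 members, DUSP7 was most like DUSP2 (r = 0.975) and DUSP10 most like DUSP6 (r = 0.977). DUSP8 gave r between -0.44 and 0.29 with each of the others.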

How the data were processed

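The authors deposited RMA values on the log2 scale for 54675 probe sets (62 of them controls) on 12 arrays; RMA is named in the submitters' processing notes, while its version and settings, and whether all arrays were normalized together, were not given in the sources used here. Probe sets were named from the platform annotation: 41091 had 1 gene symbol, of which 41042 matched a RefSeq gene, 1801 had several and 11721 were not listed. Each of 19775 genes took the probe set with the highest mean, and the 12824 genes with a mean of at least 4.02, the median over probe sets that are not controls, were tested. The number of arrays limits the precision.

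limma 3.58.1 in R 4.3.3 (with the data.table package, version 1.17.8) fitted 6 group means, leaving 6 residual degrees of freedom, and 7 contrasts were drawn; p-values were adjusted by Benjamini-Hochberg over all genes tested, and a gene was called under 0.05. This model had no replicate block. The labels number the replicates; arrays with the same number deviated together, with correlations across genes of 0.468 to 0.873 over the 15 pairs of groups (median 0.601), so a fit blocked on that number (residual degrees of freedom 5) is printed beside it. Fits within a replicate number had construct and fraction as additive terms (2 residual degrees of freedom). Their p-values measure the spread between constructs, not between replicates. The fit without 2 arrays of replicate 2 had 3; those arrays were picked from these values, so it is descriptive. The code was tested on simulated data. Alternatives were other filters, probe set rules and normalizations, and each array left out in turn.

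All 10 members are named. From each pathway list up to 4 genes per contrast are named, those with the largest difference among members called with the block; MAP3K4 and genes called only without the 2 arrays were named after their values were seen. The likest genes are the 3 with the highest correlation, for the 2 members with the widest span of group means. The members and lists were chosen with earlier results of these data known. Listed genes without a single-symbol probe set are not analysed here. The plots used matplotlib 3.10.9 and pandas 2.3.3 under Python 3.11.15.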

Additional observations from a re-analysis of the deposited data

Results flagged for a closer look

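In 2 genes every array pair of 1 group moved one way and every pair of the other group the opposite way. Each group had only 2 array pairs, and more than 1 pair of comparisons was searched, so such signs can also arise by chance. The share of all genes with such a pattern is not reported here, so the count of 2 genes is a description. By its brightest probe set DUSP1 was higher in AGO2 IP than in IgG IP of miR-21 cells, by 1.24 in replicate 1 and 0.42 in replicate 2 on the log2 scale, and lower in control vector cells, by -0.31 and -0.26. The interaction that tests this difference was 1.11 ± 0.59 and was not called (limma with the replicate block, adjusted p = 1), and it was 1.26 without the 2 arrays that go against their labels. The other DUSP1 probe set above the filter did not show the pattern: it gave -0.39 and 0.12 in miR-21 cells and 0.43 and 0.27 in control vector cells. DUSP8 was lower in miR-21 than in control vector cells in Total RNA, by -0.48 and -0.43, and higher in AGO2 IP, by 0.25 and 0.026, and in IgG IP, by 0.13 and 0.21. In Total RNA the other DUSP8 probe set, which lay below the filter, gave 0.20 and -0.35. The difference of DUSP8 between Total RNA and the IPs was not tested. Every replicate 2 value here that involves an IP uses 1 of the 2 arrays that go against their labels, so without them only the replicate 1 values and Total RNA remain.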

How the results depend on the processing

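Without the replicate block, 0 of the 10 genes and 0 of all genes were called in all 7 contrasts, and leaving out any array kept both counts at 0. So did the other filter and probe set rules, except that 1 gene, not one of the 10, was called in AGO2 IP against Total RNA and in IgG IP against Total RNA after median centring, quantile normalization or cyclic loess. With the block, AGO2 IP against Total RNA gave 3 of the 10 genes under every filter, probe set and normalization rule tried, and 2051 genes in all, 1856 without a filter, 1564 with the mean of a gene's probe sets, 1987 with median centring, 1410 with cyclic loess (619 higher and 791 lower, against 604 and 1447) and 3191 of the probe sets as rows. Leaving out 1 array in the block fit gave 0 to 5 of the 10 and 2 to 3051 genes, leaving out the 2 arrays that go against their labels 5 and 2809, and replicates 1 and 2 alone 5 each, with 4655 and 4509. AGO2 IP against IgG IP gave 0 with the block under each of these rules, but 3 of the 10 and 951 genes without the 2 arrays and 5 and 3080 within replicate 1. IgG IP against Total RNA gave 0 of the 10 with the block and 246 genes, 264 without a filter, 129 with probe set means, 241 with centring, 217 with cyclic loess (64 higher and 153 lower, against 38 and 208), 600 probe sets, 3 to 563 without 1 array, 51 without the 2 arrays, 483 within replicate 1, and 5 of the 10 with 4013 genes within replicate 2. In the construct contrasts and the interaction no setting called a gene. The fits without 1 array leave a group with a lone array, assumed to vary like the others. The 2 arrays were picked from these values, so counts without them support nothing. The cause of these changes was not tested. No member difference called in any setting had the opposite sign in the fit of all arrays without the block. Signs did change between the replicates. AGO2 IP minus IgG IP of DUSP2, called at 3.13 within replicate 1, was -0.07 within replicate 2. The same held for DUSP6, DUSP7 and DUSP10. IgG IP minus Total RNA of DUSP5, called at 1.36 within replicate 2, was -0.09 within replicate 1.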
